A study of Mus musculus with 12 samples.

Results

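A set of 8 plasma membrane amino acid transporters of naïve CD8+ T cells is described here: Slc7a5, Slc3a2, Slc7a6, Slc1a5, Slc1a4, Slc38a1, Slc38a2 and Slc7a1. They were chosen by gene symbol, as carriers of leucine, glutamine, arginine and small neutral amino acids, and are 8 of the 14323 symbols in the count table. All 8 had a row. RNA was sequenced from naïve CD8+ T cells of 3 adult wild type mice, sorted from spleen as TCRβ+CD8+CD62L+CD44- cells and cultured for 6 h at 100000 cells per well. The wells carried immobilised antibody in 4 combinations, and each combination was applied to cells of each mouse, which gave 12 libraries, 3 per group. Unstimulated isotype wells had isotype control (2.5 µg/ml) and no anti-CD3, and the treatment label names a further isotype in the place of anti-CD3. Unstimulated anti-LAIR-1 wells had 2.5 µg/ml anti-LAIR-1 (clone 2C7, an agonistic antibody) and no anti-CD3. Stimulated isotype wells had 2.5 µg/ml anti-CD3 with the isotype control, and stimulated anti-LAIR-1 wells had 2.5 µg/ml anti-CD3 with anti-LAIR-1. LAIR-1 is an inhibitory collagen receptor, so the design asked what its ligation changed in resting and in CD3-stimulated cells. All groups shared genotype, sort and time and differed in the antibodies, which were plate-bound in each. No costimulatory antibody is named.

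Amino acid transporters set how fast a T cell can build protein after antigen contact. SLC7A5 (LAT1) is the light chain that carries leucine and other large neutral amino acids, and it reaches the membrane only when bound to the heavy chain SLC3A2 (CD98). SLC7A6 (y+LAT2) is another light chain of SLC3A2, which exchanges arginine against neutral amino acids with sodium. SLC1A5 (ASCT2) and SLC1A4 (ASCT1) are exchangers of small neutral amino acids, the first with glutamine as a main substrate. SLC38A1 (SNAT1) and SLC38A2 (SNAT2) take up glutamine and alanine with sodium, and SLC7A1 (CAT-1) takes up arginine and lysine. Leucine, arginine and glutamine supply bears on mTORC1, the kinase complex that couples nutrients to growth, and several of these genes are textbook targets of MYC and of ATF4.

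Library totals ranged from 1781218 to 7725545 counts, and between 10816 and 11838 genes had a count. A library's 3 counts, taken here as the floor of detection, were between 0.388 and 1.68 CPM (counts per 1000000 counts of the library). Stimulated libraries had more counts than unstimulated ones (medians 4883760 and 6204054 against 2304214 and 3548881, isotype before anti-LAIR-1). Mitochondrial transcripts took 17.6 to 20.9% of counts without anti-CD3 and 11.5 to 13.2% with it. All 7 T and CD8 cell markers were detected in every library (Cd8a at 304 to 470.0 CPM), whereas Cd4 was at 0 in 7 libraries, Ms4a1 in 9, Klrb1c in 10 and Csf1r in 11. Foxp3 was at 0 in 2 libraries and reached at most 4.49 CPM in the others. The B cell genes Cd79a and Cd79b reached at most 2.25 and 6.76 CPM in any library. The summed level of the 3 myeloid markers in the table stayed between 0.564 and 4.30 CPM over all libraries. The part of depth and mitochondrial share in the results was not tested, except that counts were thinned to equal depth: the 6 transporters called higher with anti-CD3 in both antibody groups passed then too, and Slc1a4 no longer met the filter. The 6 activation markers, which include Cd69 and Myc, summed to 200.2 to 234 CPM without anti-CD3 and to 1852 to 2365 CPM with it. In these bulk libraries, fewer cells of a type and less RNA per cell cannot be told apart.

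The promoters of 4 of the transporters are printed because these genes differ in their response below: Slc1a4 was listed at 0 in unstimulated isotype cells, Slc7a1 was the one called lower with anti-LAIR-1, Slc3a2 rose, and Slc38a2 did not change detectably. Each stretch runs from 250 bases before the RefSeq start site to 20 bases after it on the gene's own strand, from RefSeq on GRCm38.p6. Of the 8 genes, 5 matched a promoter entry, with 7 windows. Slc7a5, Slc1a5 and Slc38a1 had no entry and were not searched. Capitals mark a match to an ATF4-type element (TGATGNAA, both strands) or an AP-1 element (TGANTCA, both strands). The stretches are chr11:20332694-20332963 for Slc1a4, chr5:148399885-148400154 for Slc7a1, chr19:8713878-8714147 for Slc3a2 and chr15:96699709-96699978 for Slc38a2, all on the minus strand. That of Slc3a2 lies inside the annotated span of the gene (chr19:8706882-8723369), at an internal RefSeq start site. The sequence at the annotated 5′ end of Slc3a2 was not searched.
Slc1a4: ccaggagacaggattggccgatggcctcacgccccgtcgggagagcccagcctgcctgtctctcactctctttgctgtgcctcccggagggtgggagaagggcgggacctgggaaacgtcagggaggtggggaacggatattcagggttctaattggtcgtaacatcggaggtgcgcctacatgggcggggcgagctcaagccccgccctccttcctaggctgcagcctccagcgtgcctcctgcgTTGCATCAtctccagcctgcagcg
Slc7a1: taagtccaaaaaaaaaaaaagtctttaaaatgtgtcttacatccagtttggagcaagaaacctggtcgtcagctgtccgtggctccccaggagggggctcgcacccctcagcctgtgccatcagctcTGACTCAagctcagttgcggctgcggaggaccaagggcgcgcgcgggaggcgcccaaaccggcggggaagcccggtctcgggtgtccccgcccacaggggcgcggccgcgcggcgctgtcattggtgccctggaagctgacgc
Slc3a2: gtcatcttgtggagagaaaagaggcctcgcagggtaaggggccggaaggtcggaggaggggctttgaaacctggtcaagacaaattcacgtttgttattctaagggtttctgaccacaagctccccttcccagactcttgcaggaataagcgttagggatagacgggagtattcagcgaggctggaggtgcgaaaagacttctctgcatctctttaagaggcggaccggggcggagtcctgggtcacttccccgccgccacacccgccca
Slc38a2: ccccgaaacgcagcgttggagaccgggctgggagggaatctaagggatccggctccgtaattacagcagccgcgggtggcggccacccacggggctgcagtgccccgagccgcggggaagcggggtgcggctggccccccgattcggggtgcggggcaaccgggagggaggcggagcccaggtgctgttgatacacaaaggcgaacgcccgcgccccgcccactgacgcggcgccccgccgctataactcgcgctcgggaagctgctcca

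The ATF4-type element TTGCATCA of Slc1a4 began 4 bases before the start site, and such an element stood in 3.97% of all 32851 promoter windows of 300 bases. The AP-1 element TGACTCA of Slc7a1 began 123 bases before the start site of the printed stretch, and this element was found in 7.81% of windows. Slc7a1 had another window, at chr5:148392766-148393065, which held no match to any motif searched. None of the 7 member windows held the E-box CACGTG, which 7.15% of windows had, and Slc7a5, Slc1a5 and Slc38a1 were not searched for it. The GC box GGGCGG, searched on both strands, occurred in windows of Slc3a2, Slc7a6, Slc1a4, Slc38a2 and Slc7a1 and in 35.7% of all windows. A match describes letters in a window and does not show that a factor bound there.

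The first comparison asked how the transporters changed on CD3 ligation alone. With isotype control, 6 of the 8 genes rose within 6 h of anti-CD3 and none fell. Slc7a5 rose most among those tested, 7.43-fold, and Slc7a1 rose 6.22-fold, while no change of Slc38a2 was detected. Of the 7 that passed the filter on low counts, 6 were called higher (adjusted p under 0.05, edgeR quasi-likelihood test), against 35.3% of the 8690 genes tested called higher and 36.1% called lower. The median log2 fold change of the 7 was 1.71, against -0.03 for all genes tested. Together the 8 genes took 0.0891% ± 0.0015 (SD, n = 3) of counts in unstimulated isotype cells and 0.263% ± 0.0073 in stimulated isotype cells.

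Slc7a5 (chr8:121881150-121907694, minus strand, protein coding) encodes the leucine carrier LAT1. In mice 1, 2 and 3 its level was 26.4, 14.7 and 26.4 CPM in unstimulated isotype cells and 171, 163 and 180 CPM in stimulated isotype cells. All 3 stimulated libraries lay above all 3 unstimulated ones, with the lowest unstimulated value in mouse 2. The log2 fold change was 2.89 (SE 0.16, adjusted p = 7.2e-14, edgeR), which placed Slc7a5 at rank 192 of 8690 genes. The annotation has an opposite-strand gene, Gm20388, over Slc7a5, and that gene was not in the count table.

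Slc3a2 (chr19:8706882-8723369, minus strand) encodes CD98, the heavy chain that Slc7a5 and Slc7a6 products pair with. Its level was 251, 229 and 254 CPM in the 3 mice without anti-CD3 and 856, 820 and 780 CPM with it, in isotype wells. The ranges were far apart, and the log2 fold change was 1.71 (SE 0.09, 3.26-fold, adjusted p = 3.9e-14, edgeR). Slc7a6 (chr8:106168857-106198706, plus strand) was at 16.8, 10.6 and 10.8 CPM and rose to 28.1, 34.1 and 34.5 CPM. Its change was smaller, 1.28 on the log2 scale (SE 0.21, adjusted p = 1.1e-05), and mouse 1 had the highest unstimulated and the lowest stimulated value.

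Since a light chain needs the heavy chain, their counts were also set against each other within each library, where normalisation has no effect. Slc7a5 counts were 10.5, 6.39 and 10.4% of Slc3a2 counts in unstimulated isotype cells of the 3 mice and 19.9, 19.9 and 23.1% in stimulated isotype cells. The mean log2 ratio was 1.24 higher with anti-CD3 in isotype cells and 1.21 higher in anti-LAIR-1 cells, with no overlap between groups in either. Both tests gave p = 0.1, the smallest that an exact two-sided permutation test of 3 against 3 can reach. Slc7a6 went the other way without passing a test: its log2 ratio to Slc3a2 differed by -0.37 (exact permutation p = 0.2) and -0.28 (p = 0.3), and the groups overlapped. Anti-LAIR-1 made a difference of 0.04 to the log2 ratio of Slc7a5 to Slc3a2 with anti-CD3 (p = 0.8, exact permutation test) and of 0.06 without it (p = 1). The level of such a ratio depends on how each transcript is captured and does not give the ratio of the proteins.

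**Figure D1:**
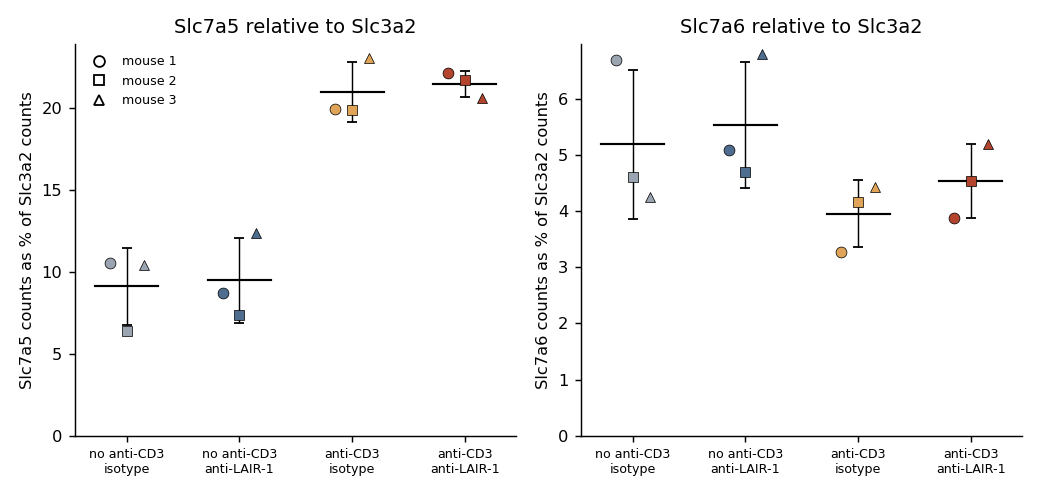
Counts of Slc7a5 (left) and Slc7a6 (right) as a percentage of Slc3a2 counts in each library (y axis), by group (x axis), with marker shape for the mouse, a bar at the mean and whiskers of 1 SD (n = 3). Slc7a5 means were 9.10 and 9.48% without anti-CD3 and 20.9 and 21.5% with it, whereas the Slc7a6 values of stimulated and unstimulated libraries overlap.

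Slc1a5 (chr7:16781340-16798274, plus strand) encodes the glutamine exchanger ASCT2. It was at 222, 226 and 248 CPM in unstimulated isotype cells and at 939, 760.1 and 917 CPM in stimulated isotype cells. Its log2 fold change was 1.88 (SE 0.10, 3.68-fold, adjusted p = 3.7e-14, edgeR). Slc1a4 (chr11:20302180-20332713, minus strand), which encodes the related carrier ASCT1, was near the floor of detection. It had 0 counts in all 3 unstimulated isotype libraries and 16, 25 and 17 counts in the stimulated isotype libraries of mice 1, 2 and 3. Pooled over the group, its level was at least 9.94-fold higher with anti-CD3, taking 3 counts over the unstimulated group as the floor. It did not pass the filter on low counts there and was not tested.

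Slc38a1 (chr15:96571418-96642913, minus strand) and Slc38a2 (chr15:96687392-96699730, minus strand) lie close together on chromosome 15 and encode sodium-coupled carriers of the same family, SNAT1 and SNAT2. Slc38a1 was at 101, 116 and 110 CPM in unstimulated isotype cells and 257, 268 and 257 CPM in stimulated ones. It rose by 1.22 on the log2 scale (SE 0.10, adjusted p = 1.5e-10, edgeR), with no overlap between groups. Slc38a2 was at 180, 171 and 150.2 CPM without anti-CD3 and 162, 175 and 185 CPM with it, and the groups overlapped. Its log2 fold change of 0.02 (95% interval -0.20 to 0.23, adjusted p = 0.885) turned to -0.16 under upper-quartile scaling and to -0.07 under scaling by library totals. The upper end of that interval lies below the rise of Slc38a1. Under upper-quartile scaling the median of all genes itself moved from -0.03 to -0.20, and with library totals to -0.12.

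Slc7a1 (chr5:148327410-148399904, minus strand) encodes the arginine carrier CAT-1. Its level was 69.7, 55.8 and 71.6 CPM in unstimulated isotype cells and 407, 411 and 436 CPM in stimulated isotype cells of mice 1, 2 and 3. The values in each group were close together, and the log2 fold change was 2.64 (SE 0.11, adjusted p = 7.5e-16, edgeR). Slc7a1 thus ranked 249 of 8690, near Slc7a5.

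**Figure D2:**
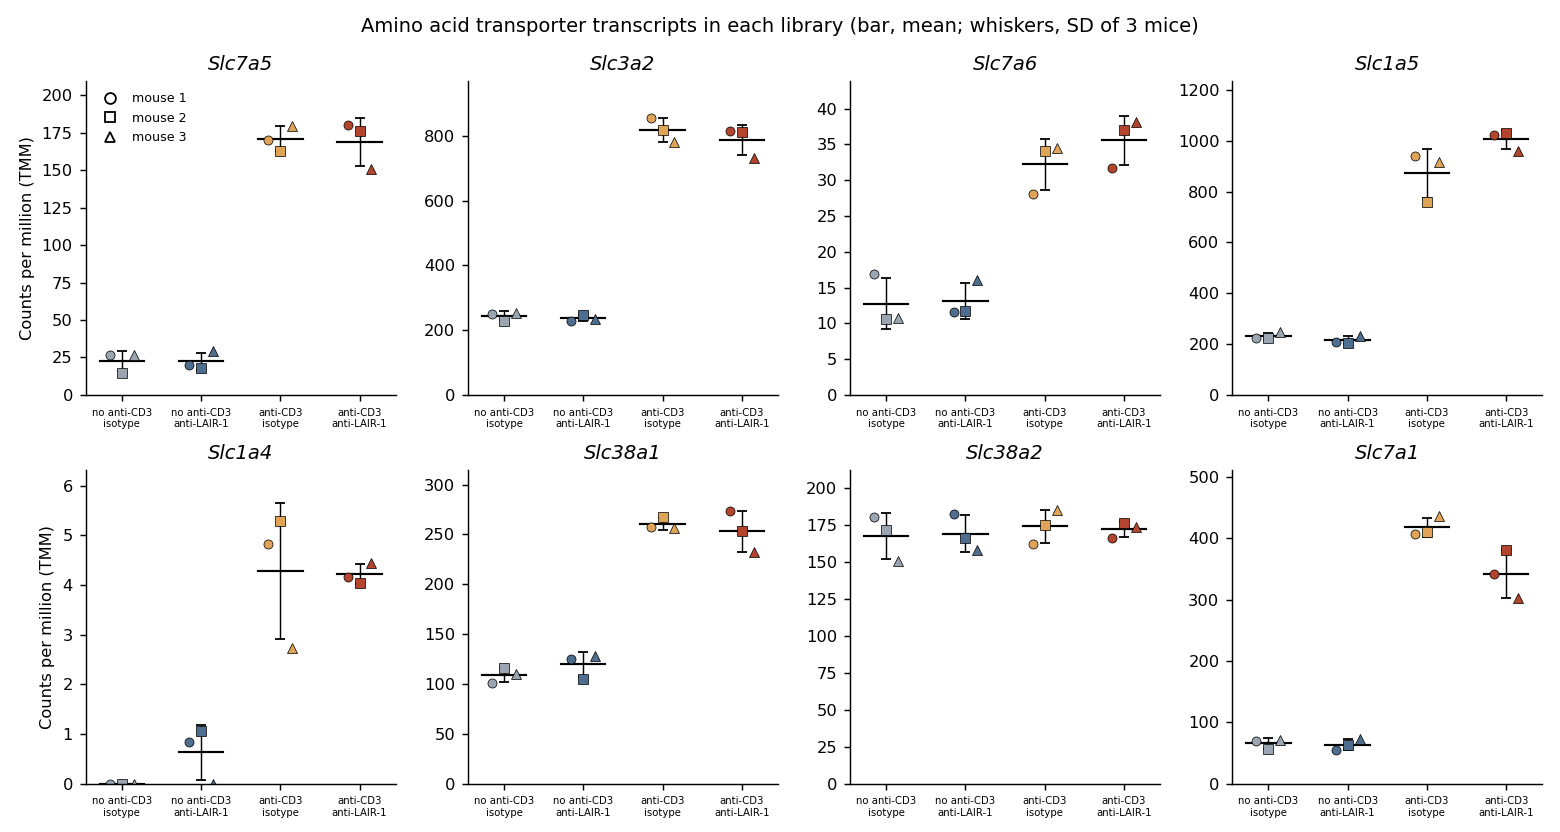
Level of each transporter in each of the 12 libraries (y axis, TMM-normalised CPM on a linear scale from 0, with a separate scale per gene), by group (x axis), with marker shape for the mouse, a bar at the mean and whiskers of 1 SD (n = 3). Stimulated libraries lie above unstimulated ones for every gene shown except Slc38a2, whose group means all fall between 167 and 174 CPM.

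The same question was put to cells with LAIR-1 ligated, in 6 other libraries. The 6 genes called in isotype cells rose with anti-CD3 here too and none fell, against 36.4% of 9000 tested genes called higher and 36.3% called lower. Slc1a4 also met the filter, but through its stimulated libraries, which fixes the direction, so it is left out of this count. Slc7a5 was at 19.9, 18.3 and 29.1 CPM without anti-CD3 and at 181, 176 and 151 CPM with it, a log2 fold change of 2.91 (SE 0.14, adjusted p = 6.2e-13, edgeR). Slc3a2 went from 228, 248 and 236 CPM to 816, 812 and 733 CPM, by 1.72 (SE 0.08). Mouse 3 had the lowest stimulated and the highest unstimulated level of Slc7a5 and the lowest stimulated level of Slc3a2. Slc7a6 went from 11.6, 11.7 and 16.03 CPM to 31.6, 36.9 and 38.1 CPM, a log2 fold change of 1.43 (SE 0.17).

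Among the small neutral amino acid carriers under anti-LAIR-1, Slc1a5 went from 207, 204 and 232 CPM to 1024, 1031 and 962 CPM with anti-CD3, by 2.22 (SE 0.08, 4.67-fold). Slc1a4 had 3, 4 and 0 counts without anti-CD3 and 31, 24 and 21 with it. The ratio of its pooled CPM was 6.68 (exact 95% counting interval 3.09 to 17.2), given as a description. Slc38a1 went from 125, 105 and 129 CPM to 273, 254 and 232 CPM, by 1.08 (SE 0.10, adjusted p = 5.1e-09). Slc38a2 again did not pass, at 182, 166 and 158 CPM against 166, 176 and 174 CPM, and had a log2 fold change of 0.02 (95% interval -0.16 to 0.19) that turned to -0.19 under upper-quartile scaling and -0.09 with library totals. Slc7a1 went from 54.8, 62.2 and 73.5 CPM to 342, 380.4 and 302 CPM, by 2.42 (SE 0.11, adjusted p = 3.3e-13).

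**Figure D3:**
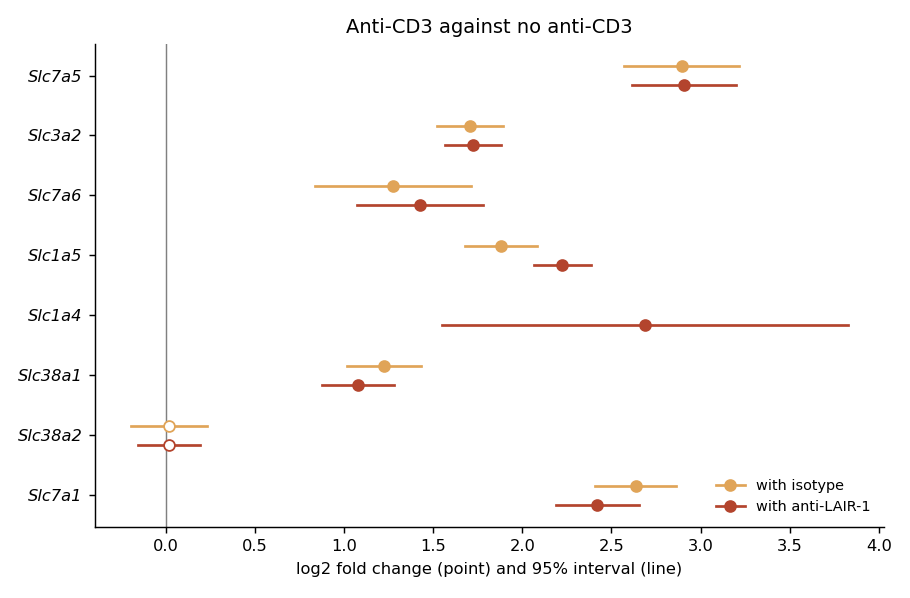
Log2 fold change of each transporter with anti-CD3 (x axis) in isotype (yellow) and anti-LAIR-1 (red) cells, with lines for the 95% interval and filled points for adjusted p under 0.05. Every tested gene except Slc38a2 lies to the right of 0, from 1.08 for Slc38a1 to 2.91 for Slc7a5 under anti-LAIR-1, and Slc1a4 has no isotype value since it did not pass the filter, while its anti-LAIR-1 value met the filter through the stimulated libraries and is no test of its direction.

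In the order of mean levels across the 4 groups, Slc7a5, Slc3a2, Slc7a6, Slc1a4 and Slc38a1 had the unstimulated groups together at the bottom and the stimulated groups together at the top. The neighbours within each pair overlapped in range, while the step from the unstimulated to the stimulated pair did not. For Slc38a2 all neighbouring groups overlapped. For Slc1a5 and Slc7a1 the unstimulated pair overlapped, but the stimulated pair did not: Slc1a5 was higher, and Slc7a1 lower, in anti-LAIR-1 libraries. The share of all genes whose groups separate in these ways was not counted. With anti-CD3 in isotype cells, 35.3% of genes tested were called higher and 36.1% lower, so such separation is not particular to the transporters.

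The comparison of anti-LAIR-1 with isotype in stimulated cells asked whether LAIR-1 ligation changed the CD3-stimulated levels. It moved the transporters little. Slc7a1 was called lower, at 342, 380.4 and 302 CPM with anti-LAIR-1 against 407, 411 and 436 CPM with isotype, a log2 fold change of -0.30 (SE 0.08, adjusted p = 0.037, edgeR), or 0.813 of the isotype level. It was lower with anti-LAIR-1 in all 3 mice, by 0.11 in mouse 2 to 0.53 in mouse 3 on the log2 scale. One of 8 was thus called lower and none higher, against 1.86% of 8800 genes called lower and 3.9% called higher. The call on Slc7a1 held without the anti-LAIR-1 library of mouse 2 (adjusted p = 0.018) and was lost without any of the other stimulated libraries. Without the isotype libraries of mice 1, 2 and 3 its adjusted p was 0.067, 0.072 and 0.109, and without the anti-LAIR-1 libraries of mice 1 and 3 it was 0.084 and 0.134. With the mouse as a block, Slc7a1 passed in edgeR (adjusted p = 0.029) and not in DESeq2 (0.064), and with all 12 libraries in the fit its adjusted p was 0.089.

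Slc1a5 was the gene furthest in the other direction, at 1024, 1031 and 962 CPM with anti-LAIR-1 against 939, 760.1 and 917 CPM with isotype. Although the ranges did not overlap, the log2 fold change of 0.20 (SE 0.08) did not pass (adjusted p = 0.157, edgeR), and the isotype library of mouse 2 stood lowest. The other 6 genes had log2 fold changes between -0.06 for Slc3a2 and 0.12 for Slc7a6, and their groups overlapped. For Slc7a5 the 95% interval ran from -0.20 to 0.15, for Slc3a2 from -0.21 to 0.08 and for Slc38a1 from -0.21 to 0.11. These intervals bound a difference to well under the rise with anti-CD3. Slc1a4 was too low for a close bound, with a ratio of pooled CPM of 1.03 (exact 95% counting interval 0.725 to 1.48).

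Summed marker levels were set side by side for the same libraries, without a test. The 7 T and CD8 cell markers summed to 2484 to 2812 CPM in stimulated anti-LAIR-1 libraries and to 2094 to 2260 CPM in stimulated isotype libraries, without overlap. The 5 naïve markers summed to 545 to 684 CPM in stimulated anti-LAIR-1 libraries and to 388 to 462 CPM in stimulated isotype libraries, without overlap. The 6 activation markers summed to 1852 to 2150.4 CPM with anti-LAIR-1 and 2102 to 2365 CPM with isotype, and the ranges overlapped. The part of these levels in the difference of Slc7a1 and in those of the other genes below was not tested.

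Without anti-CD3, anti-LAIR-1 made no detectable difference to any transporter. None of 7 tested genes was called, and none had an unadjusted p under 0.05. Over all 8770 genes tested in edgeR 0% were called, with 384 at an unadjusted p under 0.05. DESeq2 tested 13259 genes and called 0, with 198 at an unadjusted p under 0.05. Log2 fold changes lay between -0.11 for Slc1a5 (207, 204 and 232 CPM against 222, 226 and 248) and 0.13 for Slc38a1. The depth of these libraries set wide intervals for the low genes, from -0.48 to 0.48 for Slc7a5 and from -0.53 to 0.55 for Slc7a6. Slc1a4 had 7 counts in all with anti-LAIR-1 and 0 with isotype and was not tested.

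Whether the effect of anti-LAIR-1 itself differed between stimulated and unstimulated cells was tested as an interaction over all 12 libraries. No transporter was called, against 2.07% of 9223 genes. Slc1a5 had an interaction of 0.32 on the log2 scale (SE 0.12, unadjusted p = 0.0165, adjusted p = 0.248, edgeR). Its anti-LAIR-1 library was above the isotype library in 3 of 3 mice with anti-CD3 and below it in 3 of 3 without. Without anti-CD3 the groups overlapped, and how many of all genes reverse in this way was not counted. The interaction of Slc7a1 was -0.25 (SE 0.16, adjusted p = 0.597, edgeR). The lower Slc7a1 with anti-LAIR-1 in stimulated cells was therefore not shown to differ from the change of -0.05 in unstimulated cells. Slc1a4 was the other gene with an unadjusted p under 0.05, but its fitted value rests on a group at 0 counts and is not given.

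**Figure D4:**
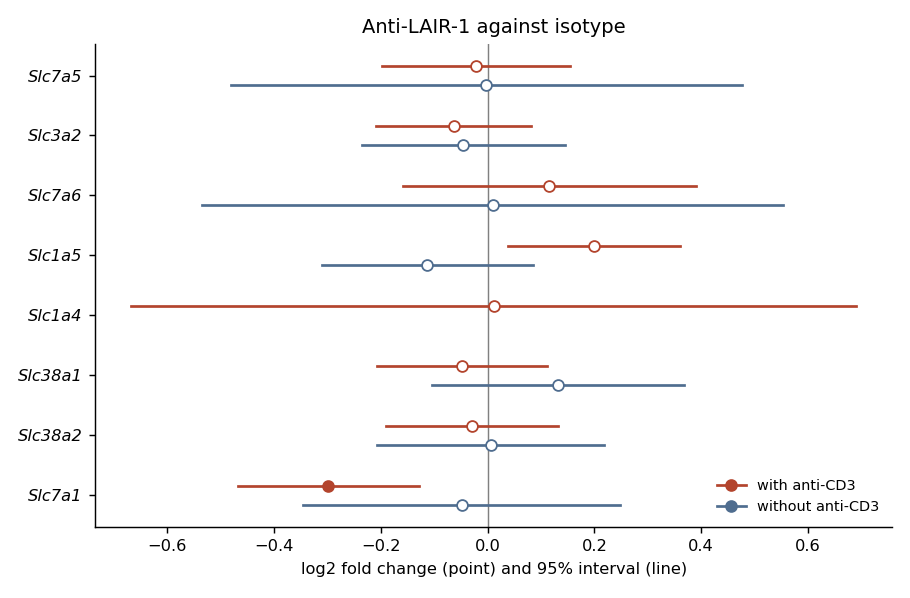
Log2 fold change of each transporter with anti-LAIR-1 against isotype (x axis) in stimulated (red) and unstimulated (blue) cells, with lines for the 95% interval and a filled point for adjusted p under 0.05. Slc7a1 in stimulated cells, at -0.30, is the one filled point, and Slc1a4 has no unstimulated value since it did not pass the filter.

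The genes whose profile over the 12 libraries was most like that of a transporter were found by the root mean square difference of centred log2 CPM. Nearest to Slc7a5 were Tma16 (0.172), 2010204K13Rik (0.188) and Rrp9 (0.189), and Slc7a1 was the nearest transporter at rank 31 of 9222. Tma16 went from 13.2 ± 3.00 CPM in unstimulated isotype cells to 107 ± 17.6 CPM in stimulated isotype cells (SD, n = 3), and Rrp9, which encodes a protein of ribosomal RNA processing, from 61.1 ± 13.8 to 445 ± 29.97 CPM. Nearest to Slc3a2 were Pomp (0.058), a proteasome assembly factor, Strap (0.067) and Magoh (0.072), an exon junction protein. Slc1a5 was the transporter nearest to Slc3a2, at rank 347. Of its light chain genes, Slc7a6 came at rank 712 and Slc7a5 at rank 2631. The points share libraries and depth, and the measure is a description.

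Other plasma membrane amino acid carriers were divided. Of 25 listed genes, 15 were in the table and 5 were tested in isotype cells, where 3 were called higher with anti-CD3 and 2 lower (median log2 fold change 0.90), against 35.3 and 36.1% of all genes tested. Among the 3, the glycine carrier Slc6a9 and the aromatic amino acid carrier Slc16a10 met the filter through their stimulated libraries. This fixes the direction, so both are given as descriptions. Slc6a9 had 0, 1 and 3 counts in unstimulated isotype cells and 26, 29 and 26 in stimulated ones, a ratio of pooled CPM of 10.4 (exact 95% counting interval 3.91 to 39.1). Slc16a10 went from 3.40 ± 2.24 to 21.1 ± 2.86 CPM. The taurine carrier Slc6a6 rose by 0.90 (SE 0.13). Slc43a2, which encodes the large neutral amino acid carrier LAT4, dropped by 3.98 on the log2 scale (SE 0.21), from 62.0 ± 4.97 to 4.07 ± 0.94 CPM. Its stimulated level was near the filter on low counts, which it met with its unstimulated libraries. Slc38a6, of the same family as Slc38a1, went from 16.8 ± 4.16 to 3.44 ± 1.66 CPM. It met the filter through its unstimulated libraries, which fixes the direction, so it is given as a description. The leucine carriers LAT1 and LAT4 thus moved in opposite directions at the RNA level. The lists were drawn up with earlier results of these data known, and their counts are descriptions.

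These same carriers were the list with most calls in the comparison of anti-LAIR-1 with isotype in stimulated cells, where 3 of 5 were called higher and 1 lower, against 3.9% of all genes called higher and 1.86% lower. Slc43a2 was higher with anti-LAIR-1 by 1.01 (SE 0.27, 8.24 ± 1.09 against 4.07 ± 0.94 CPM), Slc38a6 by 1.22 (SE 0.32, 8.73 ± 2.21 against 3.44 ± 1.66 CPM) and Slc16a10 by 0.64 (SE 0.15). Slc6a6 was lower by 0.49 (log2 fold change -0.49, SE 0.11, 79.6 ± 4.27 against 111 ± 19.8 CPM). Adjusted p-values were 0.037, 0.029, 0.017 and 0.012 in that order (edgeR). Slc38a6, counted among the 3, met the filter on low counts through its anti-LAIR-1 libraries. This fixes the direction, so its call is no test of it and its values are a description. With the mouse as a block all 4 passed in edgeR and none in DESeq2 (adjusted p 0.383, 0.140, 0.151 and 0.055 in the same order). Slc43a2 also missed in DESeq2 without the block (0.112) and after thinning (0.423), and Slc16a10 after thinning (0.064). Each call was lost without some libraries. That of Slc43a2 went without the isotype library of mouse 1 or 3 or the anti-LAIR-1 library of mouse 2 or 3 (adjusted p 0.079 to 0.158), and that of Slc38a6 without isotype mouse 1 or 2 or anti-LAIR-1 mouse 1 or 3 (0.063 to 0.116). That of Slc16a10 went without isotype mouse 1 or 2 or anti-LAIR-1 mouse 2 (0.051 to 0.108), and that of Slc6a6 without mouse 2 of either group (0.074 and 0.052). The interaction of Slc6a6, -0.66 (SE 0.17, adjusted p = 0.036, edgeR), was called in the full set and in 3 of 12 fits that left out 1 library. Those 3 were without the unstimulated anti-LAIR-1 library of mouse 2 and without either stimulated library of mouse 1, and in the others the adjusted p was 0.056 to 0.129. It was not called after thinning (0.055).

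The list drawn up as lysosomal carriers, several of which hand amino acids back to the cytosol, leaned lower with anti-CD3 in isotype cells. Where each protein resides was not examined. Of 8 tested, 5 fell and 1 rose, with a median log2 fold change of -1.43 against -0.03 for all genes, of which 36.1% fell and 35.3% rose. Ctns, the cystine exporter, fell by 2.50 (SE 0.28). Slc36a1, a proton-coupled carrier, went from 13.3 ± 3.83 to 3.28 ± 1.43 CPM, and Slc17a5, which exports sialic acid, from 8.75 ± 2.05 to 2.04 ± 0.52 CPM. Both met the filter through their unstimulated libraries, which fixes the direction, so both are given as descriptions. Another of the 5 that fell met it in the same way, so the filter set part of this count and of the median. Slc38a10 rose by 0.49 (SE 0.16), a call that was lost under upper-quartile scaling (adjusted p = 0.089), after thinning (0.289) and in DESeq2 with the mouse as a block (0.077). Under anti-LAIR-1, 6 of 8 fell and 1 rose with anti-CD3, and none of 8 was called between anti-LAIR-1 and isotype in stimulated cells (median -0.01).

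Genes of amino acid sensing to mTORC1 were called in both directions. With anti-CD3 in isotype cells 9 of 27 rose, near the 35.3% of all genes, and 5 fell, against 36.1% (median 0.07). Sec13 (1.25, SE 0.12), Seh1l (1.01, SE 0.15) and Mios (0.99, SE 0.23), which encode components of the GATOR2 complex, rose. Wdr24 (-0.03, adjusted p = 0.941, edgeR) and Wdr59 (0.53, adjusted p = 0.164), of the same complex and named after their values were seen, did not pass. Gatsl2, a relative of the arginine sensor CASTOR1, had 14, 18 and 7 counts in unstimulated isotype cells and 1, 2 and 5 in stimulated ones, at 0.106 of the pooled CPM (exact 95% counting interval 0.0426 to 0.229). Sesn1, of the sestrin family of leucine sensors, fell by 3.02 (SE 0.19) and Lamtor2, of the lysosomal Ragulator complex, by 1.46 (SE 0.21). Under anti-LAIR-1, 9 of 27 rose and 7 fell with anti-CD3, and none was called between anti-LAIR-1 and isotype in stimulated cells.

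Enzymes that use glutamine, leucine or arginine rose for the greater part. In isotype cells 13 of 18 tested rose with anti-CD3 and 3 fell (median 0.90), against 35.3 and 36.1% of all genes. Bcat1, the cytosolic transaminase of leucine, went from 1.45 ± 0.33 to 85.6 ± 2.22 CPM. It met the filter through its stimulated libraries, which fixes the direction, so it is given as a description. It is among the 13 counted as rising in each antibody group. Ctps rose by 3.24 (SE 0.17) and Odc1, which makes polyamines from the arginine product ornithine, by 2.59 (SE 0.09). Bckdha, a subunit of the branched-chain keto acid dehydrogenase, fell by 0.84 (SE 0.30), Glud1 by 0.60 (SE 0.11) and Glul, glutamine synthetase, by 0.48 (SE 0.13). The Bckdha call was lost without the unstimulated isotype library of mouse 1 (adjusted p = 0.211) or the stimulated isotype library of mouse 2 (0.064), in DESeq2 (0.109) and in DESeq2 with the mouse as a block (0.239), where that of Glul was lost too (0.068). Under anti-LAIR-1, 13 of 20 rose and 4 fell with anti-CD3. Between anti-LAIR-1 and isotype in stimulated cells 1 of 20 was called: Bcat1, at 68.7 ± 1.87 against 85.6 ± 2.22 CPM (log2 fold change -0.32, SE 0.09, adjusted p = 0.038, edgeR), a call lost whichever of the 6 libraries was left out (adjusted p 0.061 to 0.122), in DESeq2 without and with the block (0.059 and 0.299), after thinning (0.345) and in the fit of all 12 libraries (0.090).

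Uptake genes for glucose, lactate and other nutrients rose too, 12 of 17 with anti-CD3 in isotype cells against 1 that fell (median 1.44), beside 35.3 and 36.1% of all genes. Tfrc, the transferrin receptor, rose by 3.98 (SE 0.13) and the biotin and pantothenate carrier Slc5a6 by 3.28 (SE 0.23). The nucleoside carrier Slc29a3 rose by 3.83 (SE 0.24) from 3.67 ± 1.39 CPM, near the filter on low counts, which it met with its stimulated libraries. The zinc exporter Slc30a1 fell by 0.96 (SE 0.24), a call lost in DESeq2 with the block (adjusted p = 0.061). Under anti-LAIR-1 the counts were 12 and 1 of 17 again. Between anti-LAIR-1 and isotype in stimulated cells, Slc29a1 was higher by 0.35 (SE 0.07, adjusted p = 0.0074, edgeR) and Tfrc lower, at 320.1 ± 10.8 against 377 ± 12.8 CPM (log2 fold change -0.24, SE 0.07, adjusted p = 0.042). The Tfrc call was lost whichever library was left out (adjusted p 0.064 to 0.124), in DESeq2 with the block (0.126), after thinning (0.076), with library totals (0.057) and in the fit of all 12 libraries (0.180), and that of Slc29a1 was kept in 6 of 6 such fits.

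The list drawn up as known regulators of these carriers moved both ways. Whether each gene acts on these carriers was not examined, and Txnip is described below by its role in glucose uptake. In isotype cells 10 of 20 rose with anti-CD3, against 35.3% of all genes, and 8 fell, near the 36.1% of all genes (median 0.42). Myc rose by 3.94 (SE 0.12), from 44.0 ± 7.39 to 689 ± 66.4 CPM, Eif2s1 by 2.13 (SE 0.09) and Atf4 by 1.49 (SE 0.10), from 131 ± 7.80 to 378 ± 17.5 CPM. Txnip fell by 3.55 (SE 0.11). Nedd4l, a ubiquitin ligase, went from 17.5 ± 1.30 to 0.918 ± 0.43 CPM. It met the filter through its unstimulated libraries, which fixes the direction, so it is given as a description. The lysosomal gene regulator Tfeb had 11, 19 and 12 counts in unstimulated isotype cells of mice 1, 2 and 3 and 0, 0 and 7 in stimulated ones, at 0.0857 of the pooled CPM (exact 95% counting interval 0.0325 to 0.193). All 7 stimulated counts were in mouse 3, so the size of this fall rests on 1 library. Under anti-LAIR-1, 9 of 20 rose and 8 fell. Between anti-LAIR-1 and isotype in stimulated cells 1 of 17 was called. Txnip, an arrestin that restrains glucose uptake, was higher with anti-LAIR-1, at 93.96 ± 6.68 against 52.7 ± 4.93 CPM (log2 fold change 0.83, SE 0.10, adjusted p = 7.0e-05, edgeR), and its interaction of 0.71 (SE 0.15, adjusted p = 0.0091) passed in all 12 fits that left out 1 library. Without anti-CD3, no gene of any of the 6 lists was called between anti-LAIR-1 and isotype.

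**Figure D5:**
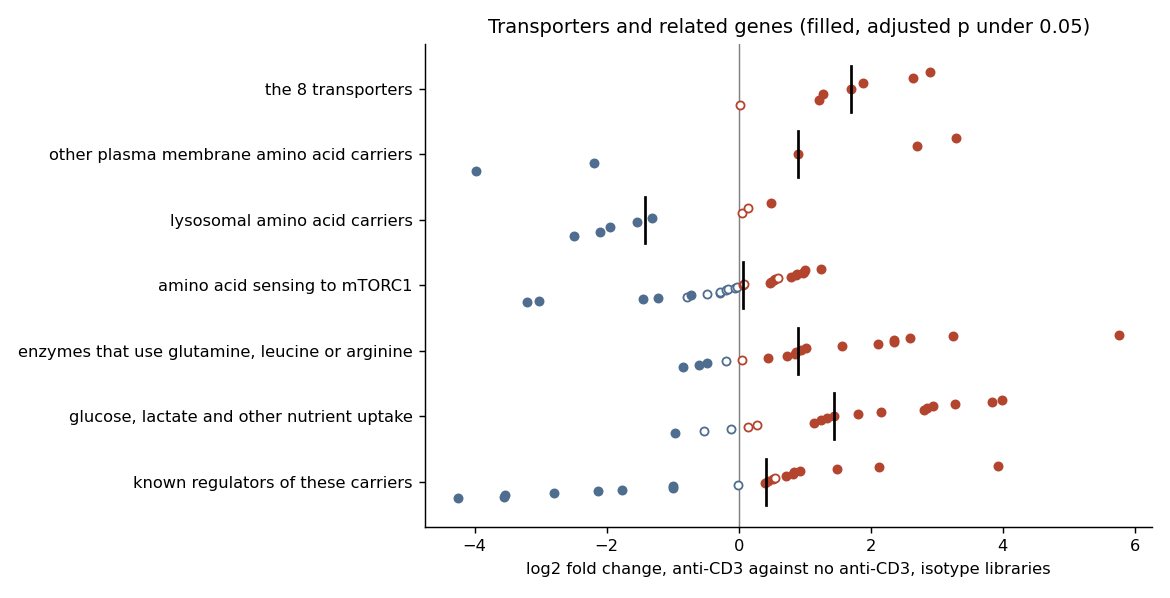
Log2 fold change with anti-CD3 in isotype cells (x axis) for the tested transporters and the tested genes of the 6 lists (rows), with a point per gene, filled for adjusted p under 0.05 and coloured by direction, and a bar at the median. The transporter row lies at or above 0 with a median of 1.71, while the lysosomal carriers lie mostly below 0 with a median of -1.43.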

How the data were processed

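RNA of 12 libraries was sequenced with an adapted CEL-seq protocol (3′ end) on an Illumina NextSeq. Read 2 was aligned by the authors to the mm10 transcriptome with BWA MEM (version not given in the sources used here), reads mapping equally well to several places were discarded, and the rest were counted per gene with MapAndGo. The deposited values are whole read counts, not normalised. Whether molecular identifiers were collapsed is not stated. If they were not, intervals from counts are too narrow even for counting error. These intervals pool the counts of the mice in a group and leave out the spread between mice. Apart from the ratios of light to heavy chain counts, levels were not compared between genes.

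Samples were grouped by their labels. Each comparison was fitted on its own 6 libraries, and the interaction on all 12, in edgeR 4.0.16 (TMM, filterByExpr by group, quasi-likelihood test) under R 4.3.3, with Benjamini-Hochberg adjustment over all genes tested, non-coding genes included, at 0.05. Standard errors are the log2 fold change divided by the square root of F, and CPM of the transporters and list genes are TMM-normalised over the 12 libraries. The detection floor of each library, cell type marker levels and marker sums are CPM of the library total without TMM. DESeq2 1.42.0 was an alternative. The fits were tested on simulated data. Other alternatives were 3 scalings, no filter or 10 counts in every library, no mitochondrial genes and Rn45s, thinning to the smallest total, a mouse block, 1 fit of all libraries, and leaving out each library.

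The 8 transporters, the 6 gene lists and the tests were chosen with earlier results of these data known. Named are the 8 genes, of each list and comparison up to 3 called genes with the highest and 3 with the lowest log2 fold change, every list gene called in the interaction, the 3 genes most like Slc7a5 and the 3 most like Slc3a2, and marker genes. Medians of the lists stand without a set test. Mouse numbers in the labels mark the same animal, so libraries are paired by mouse. Deviations from group means correlated by a mean of 0.0489 (-0.0068 to 0.0882) for the same mouse and -0.0245 for different mice, and the study states no block, so the block was an alternative. Replicates differed beyond sampling noise in every group. Coordinates are from GENCODE M21 (GRCm38, the same build as mm10). A planned comparison of protein sequences was not run. One marker gene is not reported here.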

Additional observations from a re-analysis of the deposited data

Results flagged for a closer look

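Values for 3 genes stood out because anti-LAIR-1 and isotype compared differently in stimulated and in unstimulated cells. The taurine carrier Slc6a6 had an anti-LAIR-1 change of -0.49 in stimulated and 0.18 in unstimulated cells, with an interaction of -0.665 on the log2 scale (adjusted p = 0.036, edgeR). Txnip had changes of 0.83 and 0.13, with an interaction of 0.709 (adjusted p = 0.0091, edgeR). The glutamine exchanger Slc1a5 had a higher level in the anti-LAIR-1 library than in the isotype library of each of the 3 mice with anti-CD3, and a lower one in each without it, and its interaction of 0.316 did not pass the test (adjusted p = 0.248, edgeR). How many of all genes reverse in this way was not counted. Groups of 3 libraries are too small for the check of single outlying samples, which was not made.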

How the results depend on the processing

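The 6 transporters called higher with anti-CD3 passed in every alternative in both antibody groups, and Slc1a4 did not pass the filter after thinning and with at least 10 counts in every library. Slc7a1 between anti-LAIR-1 and isotype in stimulated cells stayed negative in all 17 alternatives (log2 -0.39 to -0.22, adjusted p 0.0040 to 0.134) and passed in 10, and the count of transporters called there was 0 in DESeq2 with the replicate block and in the fit of all 12 libraries, and 0 to 1 when leaving out a library. The block by mouse in edgeR moved 507 calls over all genes to 549 there and ended no call on a transporter or named list gene. In that comparison 732 genes were called with no filter, 411 by DESeq2, 289 after thinning, 212 by DESeq2 with the block and 293 to 427 when leaving out a library (293 without isotype mouse 2, 315 and 334 without anti-LAIR-1 mouse 2 and 3), and the share of higher calls went from 67.7% to 79.8% in the fit of all 12. Of the 8 list genes called there, 2 passed in DESeq2 with the replicate block, 4 after thinning and 3 to 5 when leaving out a library, where 3 to 7 list genes were called with others counted in. The interaction called 191 genes, 103 after thinning, 275 with no filter and 103 to 186 when leaving out a library (103 without stimulated anti-LAIR-1 mouse 3, 110 and 125 without stimulated isotype mouse 2 and 1, 118 without unstimulated isotype mouse 2, 121 and 125 without unstimulated anti-LAIR-1 mouse 3 and 1), and 1 list gene after thinning and 1 to 2 when leaving out a library. In unstimulated cells 5 genes were called with no filter, 1 without the anti-LAIR-1 library of mouse 2 and 0 otherwise. Leaving out a library moved the fitted log2 change of Slc6a9 (3.30) to between 2.58 and 4.75, without unstimulated isotype mouse 1 and 3, and that of Tfeb (-3.54) to between -7.18 and -2.98, without stimulated isotype mouse 3 and 2.

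Sign changes were seen for values near 0 that no alternative called. For Slc38a2 with anti-CD3 in isotype cells the log2 change was -0.158 with upper quartile, -0.073 with library totals, -0.036 with at least 10 counts in every library, -0.116 after thinning and -0.054 to 0.091 when leaving out a library. Under anti-LAIR-1 these were -0.19, -0.092, -0.025, -0.066 and -0.022 to 0.083. For anti-LAIR-1 in stimulated cells, Slc1a4 was at -0.017 by DESeq2 and Slc38a2 at 0.039 after thinning. Leaving out a library gave -0.071 to 0.048 for Slc7a5, -0.29 to 0.23 for Slc1a4, -0.11 to 0.0060 for Slc38a1 and -0.075 to 0.0077 for Slc38a2. For anti-LAIR-1 in unstimulated cells, Slc7a5 was at 0.0057 with upper quartile, 0.0023 with library totals, 0.0059 in DESeq2 with the replicate block, 0.0018 with no filter and 0.0042 with at least 10 counts, and thinning gave -0.061 for Slc7a6 and -0.0058 for Slc38a2. Leaving out a library gave -0.24 to 0.16 for Slc7a5, -0.16 to 0.30 for Slc7a6, -0.062 to 0.067 for Slc38a2 and -0.17 to 0.047 for Slc7a1. For the interaction, Slc38a2 was at 0.039 after thinning, and leaving out a library gave -0.19 to 0.22 for Slc7a5, -0.047 to 0.033 for Slc3a2, -0.17 to 0.29 for Slc7a6 and -0.091 to 0.036 for Slc38a2. The cause of these changes was not tested.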
